A study of Danio rerio with 12 samples.

Results

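The outer 2 Mb at both ends of 24 zebrafish chromosomes were examined for open chromatin in 12 libraries of sorted melanoma cells (MA) and melanocytes (MC). A site counted as near an end when its peak interval started within the first 2 Mb of chromosomes 1 to 25, chromosome 4 left out, or ended within 2 Mb of the highest peak coordinate on that chromosome in any library. These 48 ends held 131134 of the 1146040 peak intervals that the 12 complete lists together placed on chromosomes 1 to 25, chromosome 4 included in that total. Because the complete lists differ in length, every library was also reduced to its strongest intervals, as many as MC_Homo, the library with the fewest, had on chromosomes 1 to 25, and those equal-length lists placed 82839 of 694920 intervals near an end, out of the same chromosomes. Unless stated otherwise, the values below come from the equal-length lists, and the interior is all sequence of the same chromosomes outside the ends.

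The 8 MA libraries were GFP-positive cells from tumours of BRAFV600E, p53lf/lf, crestin:EGFP fish. The 4 MC libraries were mCherry-positive cells from skin: 3 from BRAFV600E/+, p53+/lf, mitfa+/-, mitfa:mCherry fish (MC_Het4, MC_Het5 and MC_Het6) and 1 from a BRAFV600E, p53lf/lf, mitfa+/-, mitfa:mCherry fish (MC_Homo). Every fish thus carried the mutant BRAF transgene, which the mitfa promoter expresses in the melanocyte lineage, and at least a single loss-of-function p53 allele, so no library came from wild-type fish. The MC fish also carried the MiniCoopR mitfa transgene, and the crestin:EGFP gate takes tumour cells in which a neural crest reporter is active. MA and MC differ in tissue, reporter, sort gate, mitfa alleles and, except for MC_Homo, BRAF and p53 dose, and these cannot be told apart here. MA4 and MA5 were sequenced in run 2 with all 4 MC libraries, and MA6 to MA11 in run 3. In each library, accessibility was measured by ATAC-seq, in which a transposase cuts and tags exposed DNA, on up to 50000 cells. A sorted population is measured as a whole, so a site open in few cells and a site weakly open in all of them cannot be told apart.

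Chromosome ends are capped by telomeres, short tandem repeats bound by a protein complex that keeps the end from being treated as a break. The sequence next to them, the subtelomere, is rich in repeats and is where crossing over concentrates in male zebrafish. Peaks here rest on reads that map to a single place, so repeats that cannot be placed are silent in these lists, and the assembled end of a chromosome need not be its physical end. The long arm of chromosome 4, a large repeat-rich heterochromatic block in zebrafish, reaches to that chromosome's far end, and chromosome 4 was left out. No annotation or sequence of the GRCz11 assembly was used here, so regions are given by position, and genes, base composition and the marker genes of melanocytes were not examined.

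The libraries differed in depth and peak shape. The tag number behind each list, recovered from the peak scores, ran from 6.05 to 11.5 M in MA (M for mega, as in Mb) and was 7.74, 24.6, 10.6 and 6.42 M in MC_Het4, MC_Het5, MC_Het6 and MC_Homo. Narrow intervals, within 1 bp of 120 bp, made up 5.51 to 7.20% of the end intervals in the 6 libraries of run 3 and 17.3 to 33.7% in the 6 of run 2. The part of depth and run in the results below was tested only where a value within run 2 or between runs is given.

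Open sites were packed more closely near chromosome ends than in the interior in both cell types. The ends make up 7.58% of the sequence of the 24 chromosomes. In the 8 MA libraries they held 66.6 (lowest), 70.8 (median) and 75.0 (highest) intervals per Mb, while the MA interior held 41.3 to 42.5 per Mb. In MC the ends held 72.4, 75.8, 75.7 and 73.1 intervals per Mb in MC_Het4, MC_Het5, MC_Het6 and MC_Homo, and the interior 41.3 to 41.6 per Mb. The lowest end density of any library lay above the highest interior density.

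The density near ends was 1.68 ± 0.08 times that of the interior in MA (SD, n = 8) and 1.79 ± 0.05 times in MC (SD, n = 4). On the log2 scale the excess averaged 0.78 over the 12 libraries and was above 0 in 12 of 12 (exact two-sided sign-flip test over libraries, p = 0.000488, the smallest that 12 libraries allow, adjusted p = 0.00146 over 3 measures). In MA alone it was 0.75 (exact p = 0.00781, the smallest for 8 libraries) and in MC alone 0.84 (exact p = 0.125, the smallest for 4). The step between neighbouring intervals was shorter as well: the median gap to the next interval was 7.13 to 8.74 kb near ends against 9.76 to 11.6 kb in the interior in MA, and 7.90 to 8.68 kb against 12.6 to 13.1 kb in MC.

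The density declined over the outer 2 Mb and more unevenly beyond. In the outermost 250 kb, MA held 99.5 ± 8.39 intervals per Mb and MC 103 ± 4.52 (SD). Between 0.75 and 1.0 Mb the means were 67.4 per Mb in MA and 74.7 in MC, and between 1.75 and 2.0 Mb 55.4 ± 1.99 in MA and 56.3 ± 1.77 in MC. The next 250 kb, just outside the 2 Mb limit, held 52.6 ± 2.25 intervals per Mb in MA and 54.0 ± 1.92 in MC, and the bin after that, from 2.25 to 2.5 Mb, held more again, 60.7 ± 1.92 in MA and 58.2 ± 2.34 in MC. Between 2 and 8.75 Mb every bin mean still lay above the mean interior density, 42.0 per Mb in MA and 41.4 in MC. The lowest of these bins held 43.0 per Mb in MA and 43.8 in MC, so the excess was not confined to the outer 2 Mb. Farther in, the density moved up and down from bin to bin. The lowest bin up to 10 Mb, from 9.25 to 9.5 Mb, held 33.3 ± 1.92 per Mb in MA and 34.9 ± 1.09 in MC. The bin that followed held 46.2 ± 1.71 in MA and 44.1 ± 1.63 in MC.

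**Figure D1:**
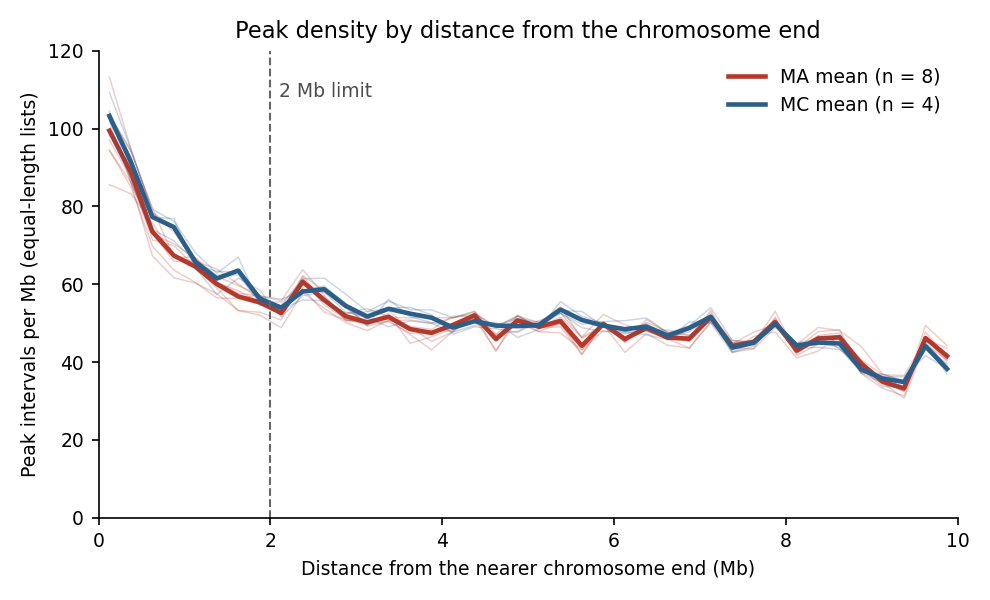
Peak intervals per Mb (equal-length lists) against distance from the nearer chromosome end in Mb, in bins of 250 kb over 48 ends. Thin lines are single libraries and thick lines the means of MA (n = 8) and MC (n = 4). The means are 99.5 (MA) and 103 (MC) per Mb in the first bin and 55.4 and 56.3 in the last bin before the dashed 2 Mb limit, and vary from bin to bin beyond it.

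The excess near ends was smaller in MA than in MC. The log2 ratio of end to interior density was 0.66, 0.75 and 0.86 in MA (lowest, median and highest) and 0.80, 0.88, 0.87 and 0.81 in MC_Het4, MC_Het5, MC_Het6 and MC_Homo. The groups overlapped, since MA4 at 0.86 lay above both MC_Het4 and MC_Homo. The difference, MA minus MC, was -0.09 (exact two-sided permutation test of the library labels, p = 0.0364, adjusted p = 0.0384 over 4 measures). Measured as base pairs covered, in place of intervals, the log2 ratio did not overlap between the groups: 0.58 to 0.77 in MA and 0.80 to 0.90 in MC. MA minus MC was then -0.16 (p = 0.00202 by the exact permutation test, which can go no lower).

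This difference varied with run and list length. Both MA libraries of run 2 lay within or near the MC range, at 0.86 and 0.80, and within run 2 alone the difference was -0.01 (exact permutation p = 0.533, smallest possible 0.0667). The 6 MA libraries of run 3 averaged 0.72 ± 0.05 against 0.83 ± 0.04 for the 2 of run 2 (SD), a difference of -0.11 (exact permutation over 28 splits, p = 0.0714, adjusted p = 0.214 over 3 measures). Set against MC, the MA libraries of run 3 differed by -0.12 (exact permutation p = 0.00952). That contrast was chosen after seeing the data, and cell type and run cannot be told apart in it. In the complete lists the sign turned, with a difference of 0.01 (exact permutation p = 0.824), and there MC_Het5, with 28153 end intervals in its long list, had the lowest ratio of all libraries at 0.58. Among stronger intervals the difference was larger, at -0.24 for the 10000 strongest (exact permutation p = 0.00606). In complete lists cut at a −log10 q of at least 5 it was -0.13 (exact permutation p = 0.0141). Without MC_Het5 or without MC_Het6 the equal-length difference was -0.08 in each case, at p = 0.0848 and p = 0.0788 by the exact permutation test.

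The median interval near ends was narrower than in the interior in MA, but not in MC, where most medians lay near the shortest width. In MA the median width near ends was 155, 172.5 and 214 bp (lowest, median and highest) against 156, 183 and 227 bp in the interior. In MC it was between 120 bp (MC_Homo) and 171 bp (MC_Het5) near ends, and the interior median of a library differed from that by at most 6 bp. Within a library, the end median minus the interior median ran from -16 to 0 bp in MA and was 0, 6, 1 and 1 bp in MC, so that 7 of 8 MA libraries lay below 0 and no MC library did.

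The mean difference between ends and interior was -10.1 ± 6.17 bp in MA (exact sign-flip p = 0.0156) and 2.0 ± 2.71 bp in MC (SD), and MA minus MC was -12.1 bp (exact permutation p = 0.0121, adjusted p = 0.0242 over 4 measures). Over all 12 libraries ends were 6.08 bp narrower (exact sign-flip p = 0.0313, adjusted p = 0.0469 over 3 measures). That value rests mainly on MA: leaving out MA4, MA5, MA6, MA7 or MA8 each gave p = 0.0625 in the exact test, with differences between -5.45 and -5.18 bp. MA9, MA10 and MA11 of run 3 stood at -6, -3 and 0 bp and MA6, MA7 and MA8 at -14, -16 and -13 bp, while MA4 and MA5 of run 2 stood at -15 and -14 bp. Run 3 minus run 2 within MA was 5.83 bp (exact permutation p = 0.321, adjusted p = 0.482).

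The share of broad intervals, of 500 bp or more, moved the same way. It was lower near ends in 11 of 12 libraries, at 1.12 to 4.60% near ends against 1.58 to 6.45% in the interior in MA, and 0.114 to 3.09% against 0.160 to 3.21% in MC. MC_Het6 was the exception, with 0.564% near ends against 0.518% in the interior. In contrast, intervals with more than 1 summit were more frequent near ends in 12 of 12 libraries, for example 7.22% against 6.29% in MA4 and 14.4% against 11.7% in MC_Het5. In MA, end intervals were thus shorter yet more often held several summits.

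**Figure D2:**
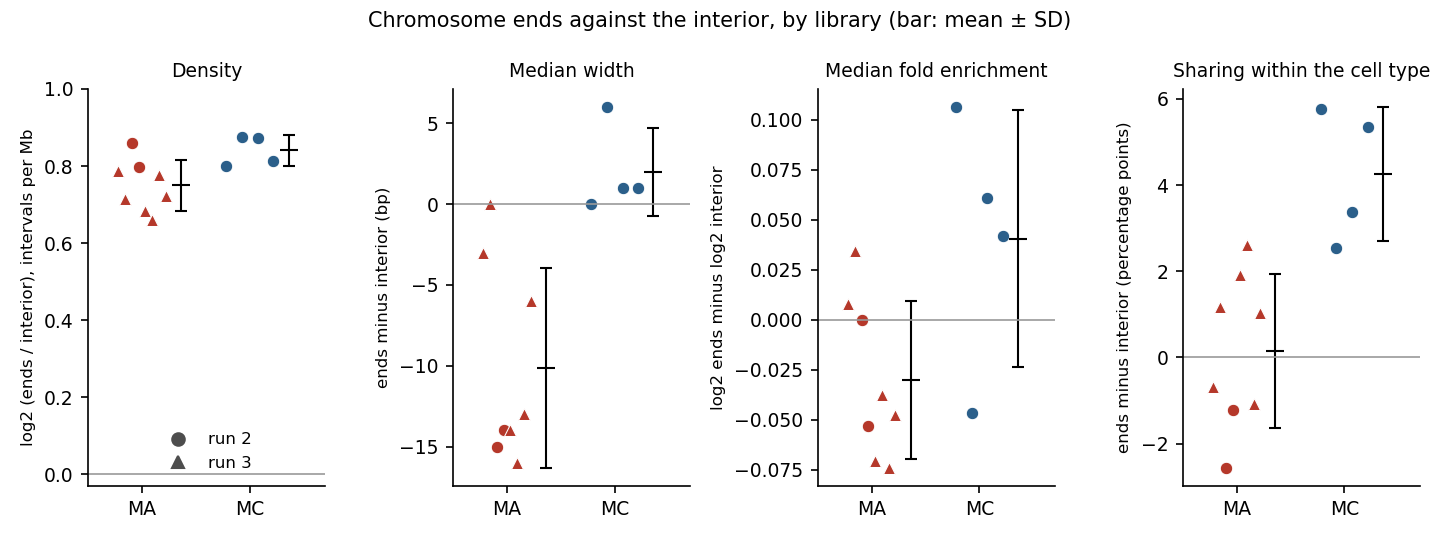
Chromosome ends set against the interior in each library, for density (log2 ratio), median width (difference in bp), median fold enrichment (log2 difference) and sharing within the cell type (difference in percentage points). Points are libraries, circles run 2 and triangles run 3, and bars show the mean ± SD of MA (n = 8) and MC (n = 4). The density ratio is above 0 in all 12 libraries, and the MA means lie below the MC means in all 4 panels.

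The median fold enrichment of the peaks was about the same near ends as in the interior. Fold enrichment is the pileup of reads at a summit over the background the caller expected there. Its median near ends was 6.02, 8.64 and 9.81 in MA (lowest, median and highest) against 5.88, 9.03 and 10.1 in the interior. In MC it was 7.33, 7.55, 7.08 and 6.09 near ends against 6.81, 7.80, 6.79 and 5.92 in the interior. The log2 difference between ends and interior averaged -0.01 over the 12 libraries (exact sign-flip p = 0.693), with 5 libraries above 0 and 6 below. The sign depended on the setting: it was 0.05 with ends of 5 Mb (exact sign-flip p = 0.00781) and -0.04 among the 10000 strongest intervals (exact sign-flip p = 0.000488). Those 10000, ranked by −log10 p, had a log2 density ratio of 0.80 ± 0.10 in MA and 1.04 ± 0.13 in MC (SD). In the equal-length lists it was 0.75 and 0.84. The ratio was lower among the 10000 strongest only in MA6 and MC_Het5. This comparison of list lengths was not tested.

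Between the cell types this log2 difference was -0.03 ± 0.04 in MA and 0.04 ± 0.06 in MC (SD), and MA minus MC was -0.07 (exact permutation p = 0.0384, adjusted p = 0.0384 over 4 measures). MC_Het5, at -0.05, lay among the MA libraries, with MA4, MA7, MA10 and MA11 above it at 0, -0.04, 0.01 and 0.03. Every MA library lay below the other MC libraries. The difference passed the threshold in only 5 of the 12 fits that left out a library: it was -0.07 without MA5, MA9 or MC_Homo, -0.06 without MA6, MA8 or MC_Het6 and -0.05 without MC_Het4, with exact permutation p from 0.0545 to 0.152. Among the 10000 strongest intervals it turned to 0.03 (exact permutation p = 0.0343).

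Equal fold enrichment came with more reads and more background near ends. The median pileup at the summit was 10 to 25 reads near ends against 9 to 24 in the interior in MA, and 14, 31, 16 and 10 against 12, 29, 15 and 9 in MC, higher near ends in 12 of 12 libraries. The caller takes the largest of the genome-wide background and the local background around a peak. A list keeps intervals by their score against that background. A higher background thus asks for more reads, and the 2 results are not independent. The local value was the larger for 56.3 to 71.4% of end intervals against 45.9 to 60.1% of interior ones in MA. In MC the shares were 60.7 to 64.7% near ends against 47.98 to 53.98% in the interior, so that the share was higher near ends in 12 of 12 libraries. The expected background averaged 1.61 to 2.37 times the genome-wide level near ends against 1.45 to 2.13 times in the interior in MA, and 1.42 to 1.55 against 1.27 to 1.32 times in MC.

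Sites near ends recurred more often than interior sites between melanocyte samples, all of run 2, and about as often between tumours over both runs. An interval was counted as shared with a second library when it overlapped any interval of that library by at least 1 bp. No allowance was made for the denser lists near ends, within a cell type or across cell types. On average over the other libraries of its own type, an MA library shared 55.9, 61.5 and 67.3% of its end intervals (lowest, median and highest) against 54.7, 61.6 and 65.4% of its interior ones. The MC libraries shared 60.4, 59.3, 59.7 and 55.5% of their end intervals against 54.6, 56.7, 56.3 and 50.2% of their interior ones. The end share thus exceeded the interior share in 4 of 4 MC libraries, and in 4 of 8 MA libraries.

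In percentage points, ends minus interior was 0.14 ± 1.79 in MA and 4.26 ± 1.55 in MC (SD). MA minus MC was -4.12 points (exact permutation p = 0.00808, adjusted p = 0.0242 over 4 measures), and it passed the threshold without any single library, between -4.67 and -3.76. The groups overlapped slightly, since MA7 at 2.60 lay above MC_Het5 at 2.54. The MA value depended on which runs were paired. Pairs of MA libraries within run 3 gave ends minus interior of 0.55 points, MA4 and MA5 of run 2 against each other 1.76 points (0.22 for MA4 and 3.31 for MA5), and pairs across the runs -0.50 points. With run 2 alone, MA minus MC was -2.50 points at p = 0.0667 by the exact permutation test, the smallest that 6 libraries allow. With MA of run 3 alone against MC it was -3.71 points (exact permutation p = 0.00476). That contrast too was chosen after seeing the data and cannot tell cell type from run.

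Across cell types, end sites were shared more than interior sites in 12 of 12 libraries, with no allowance for the denser lists near ends. MA libraries found 37.6 to 56.4% of their end intervals in an MC list on average, against 34.5 to 50.2% of their interior ones. MC libraries found 40.0, 45.6, 43.3 and 35.5% of their end intervals in an MA list, against 38.7, 44.2, 41.9 and 34.6% of their interior ones. The level differed by run: the 6 MA libraries of run 3 shared 37.6 to 39.5% of their end intervals with MC, and MA4 and MA5 of run 2, the run of all MC libraries, shared 52.7 and 56.4%.

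Nearly every chromosome end was denser than its own chromosome's interior. Of the 48 ends, 46 were denser in all 12 libraries, and 574 of the 576 values of an end in a library were above 0 on the log2 scale. The exceptions were the far end of chromosome 24 in MA9, at -0.02, and the start of chromosome 3 in MC_Homo, at -0.06. The ends nevertheless differed widely from each other, from a mean log2 ratio of 0.20 at the start of chromosome 3 to 1.33 at the starts of chromosomes 22 and 14.

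By mean log2 ratio to their own interior, the leading 3 ends were the starts of chromosomes 22 and 14 and the far end of chromosome 6. The order by intervals per Mb was not the same. In MA the start of chromosome 19 held 103.5 per Mb and the far end of chromosome 6 held 78.5 (83.4 and 88.0 in MC). At the start of chromosome 22 the log2 ratio was 1.20, 1.26 and 1.41 in MA (lowest, median and highest) and 1.41, 1.46, 1.42 and 1.42 in MC_Het4, MC_Het5, MC_Het6 and MC_Homo. At the start of chromosome 14 it was 1.14, 1.44 and 1.64 in MA and 1.01, 1.30, 1.09 and 1.19 in MC, so this end lay higher in MA on average while the other leading ends lay higher in MC. At the far end of chromosome 6 it was 0.83, 1.14 and 1.34 in MA and 1.18, 1.41, 1.19 and 1.36 in MC. The lowest ratios were at the start of chromosome 3 (mean 0.21 in MA and 0.17 in MC), the far end of chromosome 24 (0.29 and 0.41) and the far end of chromosome 2 (0.30 and 0.40).

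The spread among tumours and among melanocyte samples was described end by end and was not tested. The SD over libraries at an end had a median of 0.12 in MA and 0.09 in MC and was the larger in MA at 34 of 48 ends. The start of chromosome 1 was chosen after its values were seen: there, MA11 had a log2 ratio of 0.35 where the other 7 MA libraries had 0.97 to 1.29 and the MC libraries 1.04 to 1.14. Mean log2 ratios were lower in MA at 40 ends and higher at 8.

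**Figure D3:**
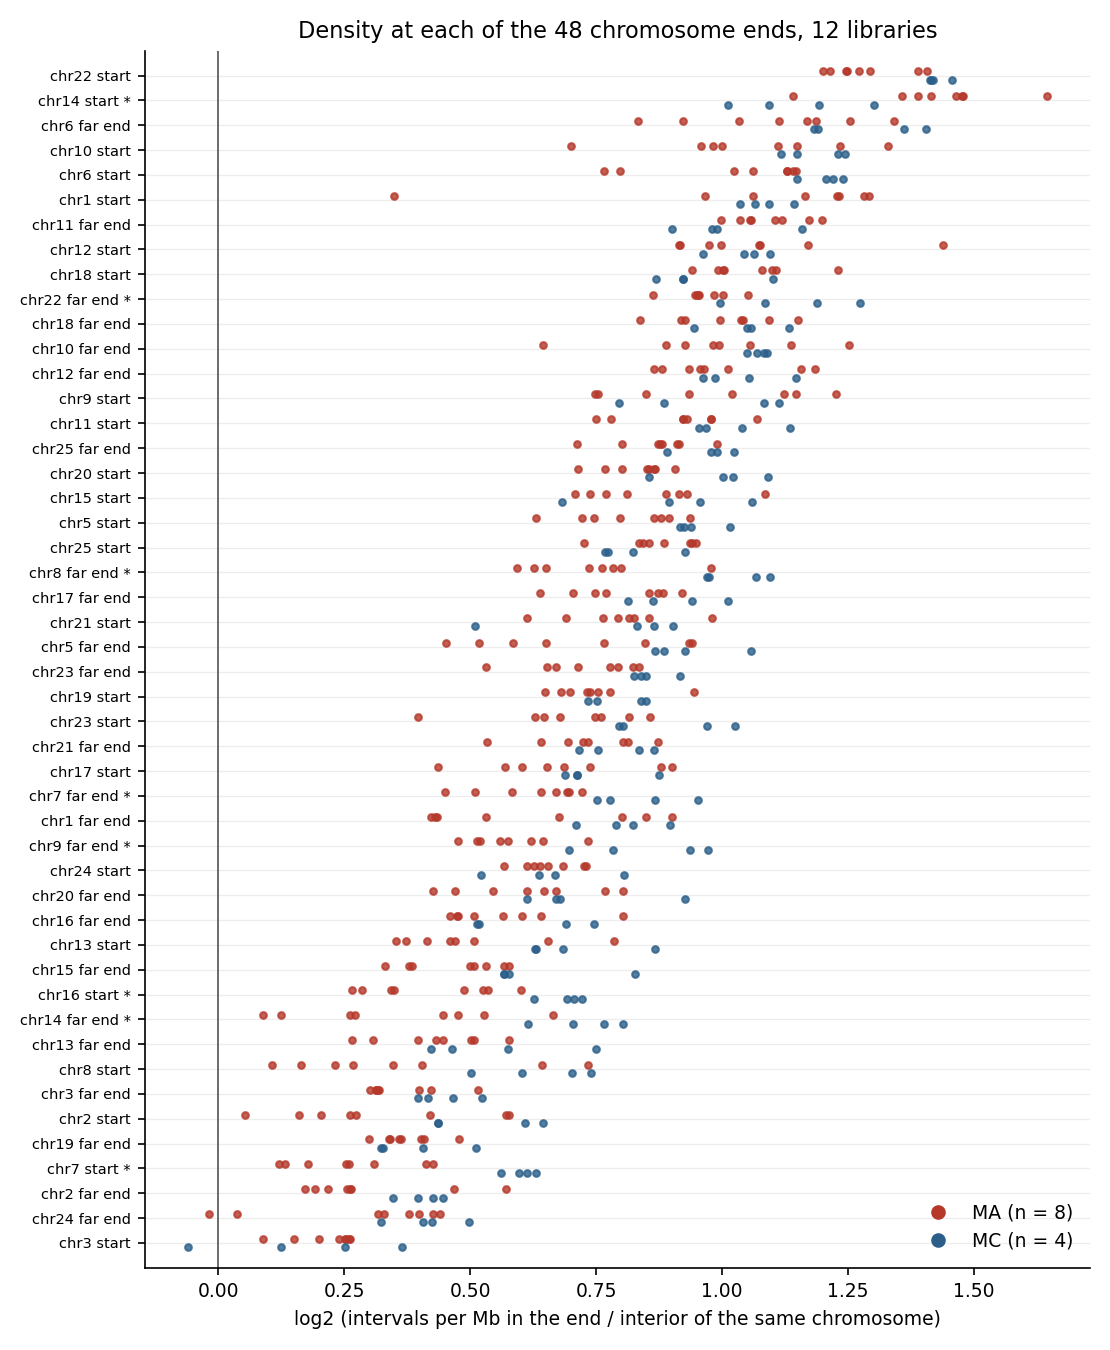
Density at each of the 48 chromosome ends, as log2 of intervals per Mb in the end over the interior of the same chromosome, ordered from the highest mean ratio (top) to the lowest. Each point is a library, MA above and MC below on each line, and an asterisk marks the 8 ends whose share of their chromosome's intervals differed between MA and MC at an adjusted p under 0.05. All but 2 points lie right of 0.

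Each chromosome was then cut into windows of 2 Mb, the end windows included, and the share of the chromosome's intervals that fell in a window was compared between MA and MC (exact permutation test for each of 635 windows, adjusted over all of them). Of the 48 ends, 1 took a higher share in MA (2.08%) and 7 a lower share (14.6%), where 8.5% of all windows were higher and 9.29% lower. At an unadjusted p under 0.05 there were 15 ends among 235 windows. Interior windows could be as dense as ends: by group mean, 26 of the 64 densest windows were ends in MA and 41 in MC.

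The end that was higher in MA was the start of chromosome 14, which held 9.49 ± 0.85% of that chromosome's intervals in MA and 7.88 ± 0.65% in MC (SD, n = 8 and 4), a difference of 1.60 points (exact permutation, adjusted p = 0.0454). The far end of the same chromosome was lower in MA, with 4.56 ± 0.63% in MA and 5.85 ± 0.33% in MC (-1.29 points, adjusted p = 0.0401 by the same exact test). The 2 ends of chromosome 14 thus went opposite ways, though shares of a single chromosome are not independent of each other. Chromosome 7 was lower in MA at both ends: its start held 3.17 ± 0.24% in MA and 3.94 ± 0.09% in MC, and its far end 4.07 ± 0.25% in MA and 4.65 ± 0.28% in MC (adjusted p = 0.0305 for each, exact permutation). The range over libraries was 2.89 to 3.52% in MA and 3.83 to 4.03% in MC at the start of chromosome 7. At its far end it was 3.63 to 4.34% in MA and 4.39 to 5.02% in MC.

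The other ends with a lower share in MA were the far ends of chromosomes 8 (5.96% in MA and 7.09% in MC), 9 (5.04% and 6.01%) and 22 (8.88% and 9.81%) and the start of chromosome 16 (4.73% and 5.59%), with adjusted p of 0.0338, 0.0338, 0.0454 and 0.0338 by the exact permutation test. At the start of chromosome 16 the range over libraries was 4.26 to 5.30% in MA and 5.40 to 5.71% in MC. The number of calls changed when a library was left out. For any window to pass, at least 26 of the 635 must pass together, 39 without an MA library and 77 without an MC library. The number of ends called was 0 without MA6, MA7, MA9 or any of MC_Het4, MC_Het5, MC_Het6 and MC_Homo. It was 5 without MA4, 9 without MA5, 2 without MA8, 1 without MA10 and 7 without MA11. Ends at an unadjusted p under 0.05 by the exact permutation test numbered 15 with all libraries and 12 to 14 in the fits with 0 calls. The smallest possible p rises when a library is left out, so the lost calls cannot show that they rest on single libraries. Set as a share of the whole list, 4 ends passed, 2 in each direction, and only 1 of them was among the 8.

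Merged over the 12 equal-length lists, the ends held 21842 of 192780 separate regions, or 228 per Mb against 140 per Mb in the interior. Regions present in all 12 libraries numbered 1031 near ends (4.72% of end regions) against 6967 in the interior (4.25%), which is 10.7 per Mb against 5.95. Regions seen in a single library were 42.0% of end regions against 44.7% of interior ones. Every end held 12 to 34 regions common to all 12 libraries, with a median of 21. Merged regions can widen with each library they hold, and the common regions were broad, with a median of 319 bp near ends against 306 bp in the interior, where all end regions had a median of 166 bp and all interior ones 163 bp.

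The 5 common end regions with the best mean rank by peak score all lay at far ends. The first was chr7:73330278-73330505 (GRCz11), 228 bp, which ranked 10 to 14 by score in MA and 10 to 13 in MC. Its fold enrichment was 81.3, 82.9 and 85.0 in MA (lowest, median and highest) and 84.6, 84.6, 83.3 and 85.8 in MC. The next was chr20:53663898-53664484, 587 bp, with fold 28.4 to 32.1 in MA and 28.3, 28.6, 27.8 and 30.3 in MC. Then came chr3:62193044-62193282 (fold 64.1 to 70.5 in MA and 64.1 to 69.6 in MC), chr13:50228015-50228514 (38.0 to 42.3 in MA and 38.0 to 41.3 in MC) and chr10:45198591-45198764 (73.0 to 80.2 in MA and 75.8 to 83.1 in MC). The choice by mean rank over all 12 libraries takes regions that are strong in both cell types, so these folds are a description.

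The outermost region common to all 12 libraries lay at a median of 39.1 kb from the assembled end, between 0.419 kb and 535 kb over the 48 ends. The closest was chr24:420-602, 0.419 kb from the start of chromosome 24, with fold enrichment of 35.9, 51.0 and 65.7 in MA (lowest, median and highest) and 66.8, 78.3, 70.4 and 67.7 in MC. At far ends the closest was chr1:59575664-59575981, 1.91 kb from the last peak coordinate, with fold 16.3, 21.2 and 34.0 in MA and 9.09, 9.35, 6.19 and 5.70 in MC. MA lay below MC on chromosome 24 and above MC on chromosome 1. These 2 regions were chosen by position, and the share of common regions that separate the groups is not given, so the folds are a description. No test across regions was made of these folds, which depend on the depth of a library.

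Presence of a region in a list was compared between MA and MC with Fisher's exact test, two-sided, for each of the 53483 regions whose number of libraries could reach an unadjusted p under 0.05, and p-values were adjusted over all of them. The only regions to pass were those in every library of a cell type and in none of the other type (p = 0.00202, adjusted p = 0.0265 by the exact test). Of the 6189 end regions tested, 355 were found only in MA (5.74%, where 6.6% of all regions tested were) and 69 only in MC (1.11%, where 1.02% were). Ends thus held these regions at about the rate of all regions tested. In the interior the shares were 6.87% and 0.992% of 45383 regions. At an unadjusted p under 0.05, 903 of the 6189 end regions were more frequent in MA and 488 more frequent in MC. Of all 53483 regions tested, 8794 and 3805 were.

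Per Mb of sequence, where ends hold more regions of every kind, the ends held 3.70 regions found only in MA against 2.66 in the interior, and 0.719 found only in MC against 0.384. Leaving out a library removes 1 condition from the rule of every library of a type and none of the other. A count can then grow with no change in the data, so its rise does not show what it rests on. The count for MA ran between 359 and 453 when a library was left out. The count for MC was 136 without MA4, 105 without MA5, 124 without MC_Het4, 153 without MC_Het5, 120 without MC_Het6 and 161 without MC_Homo. In the complete lists no end region passed in either direction by Fisher's exact test, with 706 more frequent in MA and 782 more frequent in MC at an unadjusted p under 0.05. The matching counts over all regions of the complete lists are not given, so nothing about ends is read from these.

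The end regions found only in MA were broad, with a median of 377 bp near ends against 429 bp in the interior, and those found only in MC were short, at 192 bp near ends against 179 bp in the interior. Among those found only in MC, 13.04% were narrow near ends against 21.1% in the interior. Widths of the 2 kinds are not alike by rule: a region found only in MA merges intervals of 8 libraries, and one found only in MC of 4. Single end intervals were also wider in MA, with library medians averaging 180 bp against 135 bp in MC. The contrast in width between the 2 kinds is thus a description. Absence from an equal-length list is not absence of signal. Of the 355 end regions found only in MA, 205 (57.7%) had an interval in the complete list of MC_Het5, the deepest library. In the interior 2059 of 3119 (66.0%) had one. No interval in any complete MC list was found for 142 of the 355 end regions and 922 of the 3119 interior ones. Of the 69 end regions found only in MC, 37 had none in any complete MA list, against 267 of 450 in the interior. Presence also differed by run. Shares by run are of all 21842 end and 164002 interior regions, tested or not, so they cannot be set beside the shares of tested regions above. In all 6 libraries of run 3 and none of run 2 were 48 end regions (0.220%, against 0.261% of interior regions). In all 6 of run 2 and none of run 3 were 868 end regions (3.97%, against 2.99% of interior regions). As a count, the 868 exceeded the 355 end regions found only in MA.

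Regions found only in MA occurred at all 48 ends, with a median of 7 and between 1 and 19 at an end. The highest counts were 19 of 160 regions tested (11.9%) at the far end of chromosome 18 and 18 of 168 (10.7%) at the start of chromosome 9. The far end of chromosome 22, an end whose share of intervals was lower in MA, held 16 of 144 (11.1%). Over all regions tested the share was 6.6%. These ends were picked by their counts, and ends differ in how many regions were tested. Regions found only in MC occurred at 37 ends, with a median of 1. They were most frequent at the starts of chromosomes 16 and 13, with 6 of 124 and 5 of 123 regions tested. Over all regions tested, 1.02% were found only in MC. The start of chromosome 16 held only 1 region found only in MA (0.806%).

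**Figure D4:**
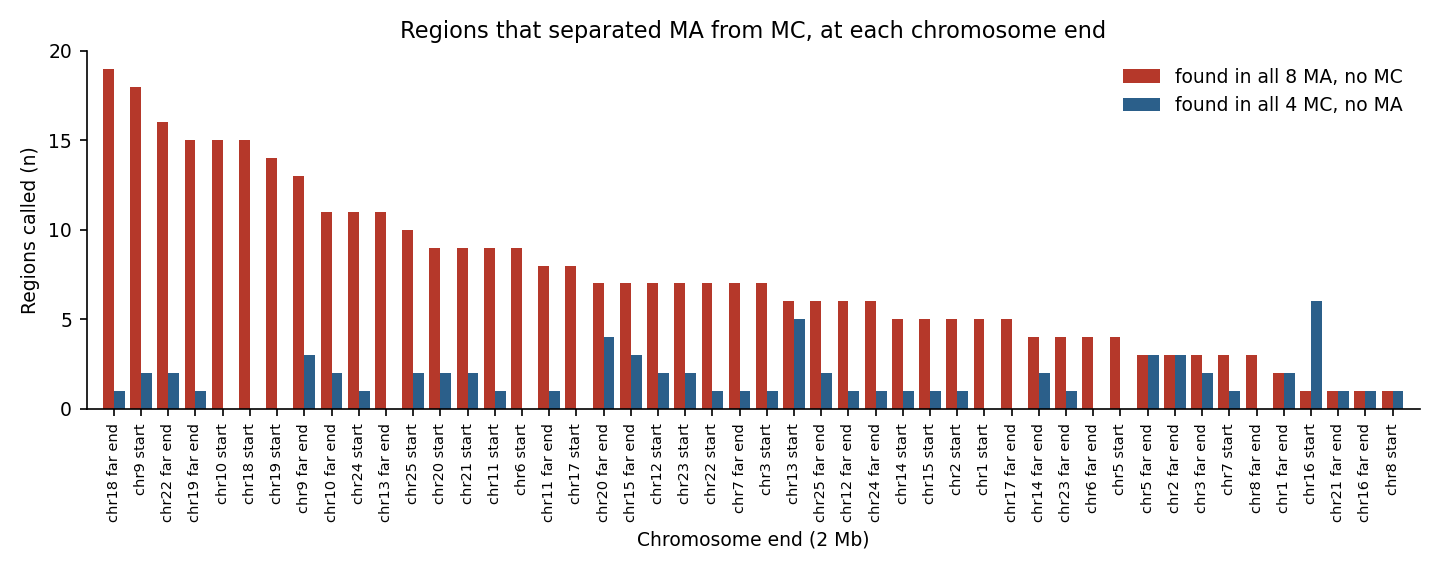
Number of regions at each of the 48 chromosome ends that were in all 8 MA lists and no MC list (left bar of each pair) or in all 4 MC lists and no MA list (right bar), ordered by the first. The MA counts run between 1 and 19 and are at least 1 at every end, and the MC counts reach 6 at the start of chromosome 16. Counts are not scaled to the number of regions tested at an end.

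By rank, the first of the regions found only in MA was chr9:1075308-1075543, 236 bp, with fold enrichment of 26.9, 35.6 and 46.0 (lowest, median and highest over the 8 MA libraries) and no interval in any complete MC list. The 4 that followed were chr9:1400084-1400453 (fold 17.9 to 33.1), chr19:1950102-1950506 (15.1 to 38.3), chr20:54278653-54279030 (18.8 to 39.3) and chr25:327369-327701 (17.2 to 38.6). The first of these 4 had an interval in 3 complete MC lists and the other 3 in 1 each. In all 5 the highest fold was in a run 3 library, MA6 or MA7.

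The 5 leading regions found only in MC were missing from all complete MA lists too, and they ranked lower than those of MA. They were the best of 69 end regions, and those of MA the best of 355. The best of a larger set can rank higher by selection alone. A region found only in MC must also be absent from more lists than a region found only in MA. The contrast in rank is thus a description. The first of those found only in MC was chr23:790499-790617, with fold 7.43, 16.3, 10.1 and 12.4 in MC_Het4, MC_Het5, MC_Het6 and MC_Homo. Its mean rank was 15774, where the leading region found only in MA had a mean rank of 1560. The others were chr9:910896-911014 (fold 5.76 to 16.7), chr9:55862095-55862227 (3.93 to 4.22), chr20:54326605-54326744 (6.10 to 14.3) and chr25:794813-795204 (7.33 to 15.8). The start of chromosome 9 thus held leading regions of both kinds, 2 found only in MA and 1 found only in MC, within the same 2 Mb.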

How the data were processed

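ATAC-seq peak lists of 12 libraries were used. According to the study's methods, the authors trimmed adapters with cutadapt, aligned reads to GRCz11 with BWA (the labels also name GRCz10), kept proper pairs with a mapping quality above 30, removed duplicates with GATK and called peaks in each library with MACS2 (effective genome 1e+09 bp, shift -50, extension 100, summits called). Tool versions are not given in the sources used here. The deposited values were fold enrichment at the summit (a ratio) and −log10 p and −log10 q. The deposited −log10 q began at 1.30, and no depths were listed.

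Summits sharing an interval were merged. Tag numbers, pileups and local backgrounds were solved from fold and −log10 p; at least 96.3% of solved pileups were whole within 0.05. Each list was cut to a common length by −log10 p. Means over libraries were compared by exact permutation over all splits into 8 and 4, ends with interior by exact sign flips over libraries, and regions, merged over libraries, by Fisher's exact test, with Benjamini-Hochberg adjustment (Python 3.11.15, numpy 2.4.6, pandas 2.3.3, scipy 1.17.1), tested on simulated data. Each library is a different fish, so p-values measure the spread between fish, runs included. Shared replicate numbers do not mark shared fish. Named were the 3 ends with the highest and the 3 with the lowest mean ratio to their interior, and those past the adjusted threshold. Also named were the 5 best-ranked regions in all 12 libraries, only in MA and only in MC, and the outermost common region of each side. Members and lists were chosen with earlier results of these data known. Alternatives were list length, threshold, end size, width, chromosome 4, overlap, run and single libraries.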

Additional observations from a re-analysis of the deposited data

Results flagged for a closer look

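In 4 measures MA and MC differed in how chromosome ends compared with the interior, by exact permutation tests of the difference itself: density (-0.0906 on the log2 scale), median width (-12.1 bp), median fold enrichment (-0.0708 on the log2 scale) and sharing within the cell type (-4.12 percentage points). Their values within run 2 stand beside each result or under the processing alternatives, and the part of run beyond that was not tested.

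Among 34 groups of 4 to 10 libraries examined for a library far from the others, 2 had one, where such a screen marks about 1 in 20 groups by chance. Both were MC_Het5, the most deeply sequenced library. Its end intervals were 6 bp wider than its interior ones, where the other MC libraries had 0 to 1 bp. At the start of chromosome 22 its log2 density ratio was 1.46, where the other MC libraries had 1.41 to 1.42.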

How the results depend on the processing

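The density excess near ends kept its direction and call under every alternative run, between 0.772 and 0.791 when a library was left out. The density difference between MA and MC reversed in complete lists (0.0104). It lost its call with ends of 1 Mb (-0.0922) and without intervals within 1 bp of 120 bp (-0.0831). The difference was -0.106 to -0.0776 over left-out libraries and -0.0117 in run 2 alone, where no call was possible. It kept its call among the 10000 strongest intervals (-0.242) and at a −log10 q of at least 5 (-0.125). The width difference between MA and MC was -16.5 bp and the sharing difference -2.50 points in run 2 alone, where 6 libraries cannot pass the threshold; left-out libraries gave -13.6 to -10.8 bp and -4.67 to -3.76 points. The fold difference reversed among the 10000 strongest intervals (0.0258). It lost its call with ends of 5 Mb (-0.0335), without the narrow intervals (-0.0443) and with chromosome 4 (-0.0620). With MA of run 3 against MC, chosen after seeing the data, it lost its call as well (-0.0720). In run 2 alone, where no call was possible, the fold difference was -0.0672, and over left-out libraries -0.0998 to -0.0488. With the replicate block, 3 pairs of libraries of the same number from different fish, density was -0.0694, width -16.7 bp and fold -0.0815, and the smallest exact p was 0.25. Over the 12 libraries, width near ends lost its call among the 10000 strongest (-7.13 bp), with ends of 1 Mb (-4.75 bp) and in run 2 (-3.5 bp), at -7.18 to -5.18 bp over left-out libraries. Fold near ends passed the threshold among the 10000 strongest (-0.0416), reversed and passed it with ends of 5 Mb (0.0461, exact sign-flip p = 0.00781) and reversed without passing it in run 2 (0.0182, p = 0.5), at -0.0168 to -0.000403 over left-out libraries. The 8 ends called became 4 as a share of the whole list, 1 in complete lists, 13 among the 10000 strongest, 4 without the narrow intervals and 0 to 9 over left-out libraries, of which 1, 1, 2 and 2 in the first 4 settings were among the 8. Regions found only in MA numbered 191 with ends of 1 Mb, 792 with ends of 5 Mb, 107 among the 10000 strongest and 0 in complete lists, and 359 to 453 over left-out libraries. Regions found only in MC numbered 42, 127, 44 and 0 in the same settings, and 70 to 161 over left-out libraries. Leaving out a library loosens the rule for these regions, so the left-out counts cannot show how firm the main ones are. The causes of these changes were not tested.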
